A study of Homo sapiens with 10 samples.

Results

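The p53 target genes described here are 41 protein-coding genes taken by name from genes that p53 is known to activate, out of 19970 protein-coding genes on chromosomes 1 to 22 and X. The transcription factor p53 is held low in unstressed cells by the ubiquitin ligase MDM2 and accumulates after DNA damage. It then binds response elements in promoters and introns and raises transcription of genes that stop the cell cycle, repair DNA, start apoptosis or change metabolism. RNA-DNA hybrids form where a transcript stays paired with its template strand, so DRIP-seq, which pulls such hybrids down with the S9.6 antibody, reads out where along a gene they are held.

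The study compared U2OS cells, an osteosarcoma line, with U2OS cells of the genotype TDP1 H493R, the change found in SCAN1 (spinocerebellar ataxia with axonal neuropathy). TDP1 clears topoisomerase 1 that has become trapped on DNA, and the series concerns how breaks made during transcription are repaired. Of the 5 DRIP libraries, experiment 1 gave 1 of WT and 1 of the line SCAN1#1, and experiment 2 gave 1 each of WT, SCAN1#1 and a further line of the genotype, SCAN1#2. All came from nuclei that were not crosslinked, the S9.6 lot of experiment 1 differed from the mixed lots of experiment 2, and no treatment is named. Whether each line is 1 clone and whether replicates were separate cultures is not stated, so p-values here reflect the spread between these samples alone. Values in the 5 libraries are given below in a fixed order: WT replicate 1, WT replicate 2, SCAN1#1 replicate 1, SCAN1#1 replicate 2 and SCAN1#2 replicate 2. The replicate number is the number of the experiment.

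The deposited lists held 63456 to 110745 peaks. To give each library the same number, only its 63456 strongest peaks by -log10 p were used, and these covered 40.7 to 46.5 Mb. The cutoffs so differ: the weakest peak used had a -log10 p of 6.13, 7.69, 3.87, 9.92 and 7.75 in the order above. The measure is the percent of a gene, with 1 kb added at both ends, that lay under those peaks. The number of reads per library is unknown here, and no counting interval could be set. Markers of the cell line gave a mixed picture. VIM was covered over 30.6 to 48.6% in every library, COL1A2 and TWIST1 had no peak among the strongest, and COL1A1 had 55.8 to 66.6% in WT but 9.09 to 35.9% in SCAN1. Of 8 markers of other lineages, HBB, ALB, CD3E and MYOD1 had no peak, and the highest value was 9.72% at EPCAM. What the lower COL1A1 coverage has to do with the values below was not tested.

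CDKN1A, GDF15 and FDXR carry most of what follows, and the 250 bases before the start of each are shown. A peak in each SCAN1 library began within 455 bases of these starts. WT peaks also began near the start at CDKN1A and FDXR. The sequences are from RefSeq on GRCh38.p14, 5′ to 3′ along the gene's strand, and capitals mark runs of 4 or more G, of which CDKN1A has 3, GDF15 has 2 and FDXR has 10. In the last of these the capitals also mark a match to the p53 half-site consensus, GGGCTTGCCC, at position -11 from the start site. CDKN1A spans chr6:36678464-36678713 (plus strand), GDF15 chr19:18385908-18386157 (plus strand) and FDXR chr17:74872995-74873244 (minus strand).
CDKN1A: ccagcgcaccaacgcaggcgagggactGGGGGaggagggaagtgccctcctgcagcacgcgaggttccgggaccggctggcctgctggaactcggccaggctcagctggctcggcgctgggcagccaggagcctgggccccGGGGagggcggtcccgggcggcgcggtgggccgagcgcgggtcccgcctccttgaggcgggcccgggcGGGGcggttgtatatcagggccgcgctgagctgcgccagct
GDF15: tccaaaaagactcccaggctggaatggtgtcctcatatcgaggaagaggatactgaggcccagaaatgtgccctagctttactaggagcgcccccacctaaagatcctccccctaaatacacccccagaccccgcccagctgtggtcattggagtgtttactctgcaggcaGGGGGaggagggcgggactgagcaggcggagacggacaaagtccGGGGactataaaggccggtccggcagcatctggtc
FDXR: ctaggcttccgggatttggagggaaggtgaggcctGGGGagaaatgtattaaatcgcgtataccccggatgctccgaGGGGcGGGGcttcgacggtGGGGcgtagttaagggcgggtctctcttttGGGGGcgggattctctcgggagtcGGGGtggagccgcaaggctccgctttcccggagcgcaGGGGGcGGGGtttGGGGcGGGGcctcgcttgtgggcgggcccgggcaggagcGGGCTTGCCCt

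The RefSeq promoter table has an entry for 31 of the 41 members. In the 300 bases from 250 before to 50 after the start, the p53 half-site consensus, searched on both strands, was matched in 4 of the 31 (12.9%) and in 5.93% of 15809 protein-coding genes. The 4 were PLK2, ABHD4, AEN and FDXR. Median G+C content was 70% in the members and 62.7% in all genes, and the median number of CpG was 29 against 22. GGGG on the strand of the gene was found in 90.3% of the members and 80.6% of all genes, and on the template strand in 87.1% and 79.7%. TATAA, searched on the strand of the gene, was found in PLK2 and GDF15, or 6.45% of the members against 12.9% of all genes. These matches are descriptions of the letters in this window.

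Hybrid peaks lay over more of the p53 target genes in SCAN1 cells than in WT cells in most members, but no member passed the test. Mean coverage of the 41 genes was 19.2, 16.9, 23.5, 22.3 and 21.8%, so each SCAN1 library was above both WT libraries, whereas all 15424 protein-coding genes with a peak had means of 11.5, 8.78, 11.8, 10.0 and 8.47%. The difference of the means, SCAN1 minus WT, was positive in 32 members and negative in 9, with a median of 1.76 percentage points, against 0.0609 over all genes with a peak. In 15 of the 41 (36.6%) every SCAN1 library lay above both WT libraries, a pattern that held for 7.83% of all genes with a peak. The opposite pattern was found in 0 members and in 6.21% of all genes. The members were chosen with earlier results of these data known, so these counts are a description and no independent support. With 1 library left out, a looser criterion, 17 to 22 members were above (10.8 to 19.7% of all genes) and 1 to 5 below (9.92 to 21.7%), 5 of them without either WT library. The 15 were CDKN1A, PLK3, CCNG1, BBC3, TP53INP1, FAS, TNFRSF10B, EDA2R, RRM2B, FDXR, TIGAR, DRAM1, CMBL, GDF15 and TRIM22. A library pools many cells, so hybrids in more cells and more hybrid per cell cannot be told apart.

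The test across all genes used limma on the 8471 protein-coding genes with a mean coverage of at least 2%. At an adjusted p of 0.05 it called 0.0% of them higher and 0.0% lower (the smallest adjusted p was 0.358), while at an unadjusted p under 0.05 it put 1.94% of them higher and 1.55% lower. Of the 41 members, 29 passed the filter. They include genes such as GDF15 that passed only through the SCAN1 libraries and had to differ, so their counts are a description. Among the 29, 23 differences were positive and 6 negative (51.6% and 48.4% of all tested genes), with a median of 3.53 percentage points against 0.0803 (2.19 without WT replicate 2, 5.50 without WT replicate 1). No member was called, and the smallest adjusted p of a member was 0.966 (GDF15). At an unadjusted limma p under 0.05, 3 members were higher (GDF15, TIGAR and TNFRSF10B) and 0 lower. Without SCAN1#1 replicate 2, 2 were higher and 1 lower (ABHD4), beside 134 and 95 of all 8471 genes. Without SCAN1#1 replicate 1, 5 were higher and 0 lower, beside 223 and 193 of all genes. Without SCAN1#2 the members gave 5 and 0, beside 260 and 96. Leaving out a WT library leaves 1, so no count is given. With the experiment as a block, 7 members were higher at that level and 0 lower, beside 3.52% and 2.6% of all tested genes, and the adjusted p of every tested gene was at least 0.742. The 4 added by the block were BBC3, BTG2, FDXR and MDM2. The 12 members under the filter had values from 0 to 2.76%, and the threshold fell between ABHD4, with a mean of 2.22%, and FAS, with 1.91%.

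**Figure D1:**
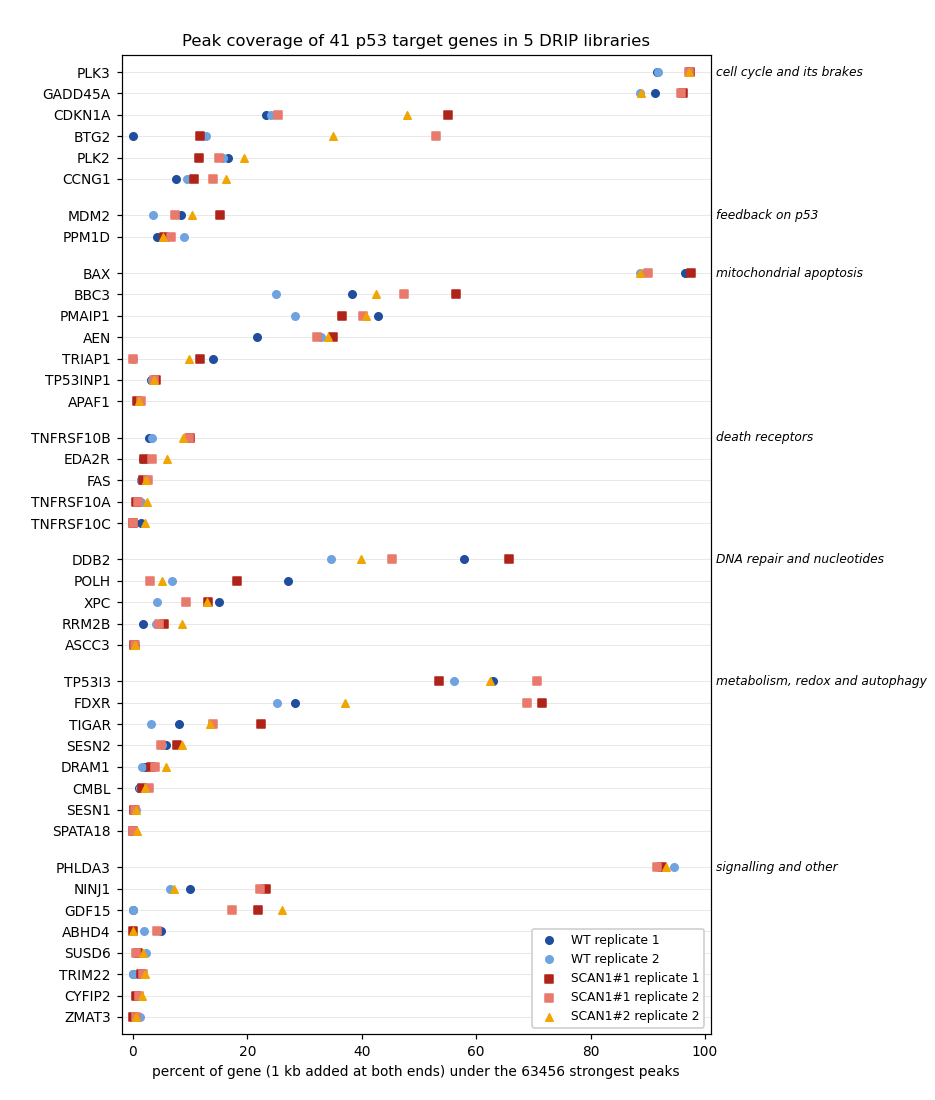
Percent of each of the 41 p53 target genes (1 kb added at both ends) under the 63456 strongest peaks, with 1 point per DRIP library and the genes grouped by role. The 3 SCAN1 points of CDKN1A, FDXR, TIGAR and GDF15 lie to the right of both WT points, while GADD45A, PLK3, BAX and PHLDA3 sit near full coverage in every library.

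Genes that hold the cell cycle were represented by 6 members, all of which passed the filter, and 3 of them were higher in every SCAN1 library than in both WT libraries. That pattern held for 7.83% of all genes with a peak. CDKN1A, which encodes the cyclin-dependent kinase inhibitor p21 (chromosome 6, 36676463 to 36687332, GRCh38, plus strand), was covered over 23.3, 24.1, 55.0, 25.4 and 48.0%. WT averaged 23.7 ± 0.56% (SD, n = 2) and SCAN1 42.8 ± 15.5% (SD, n = 3), a difference of 19.1 points with a standard error of 11.6 (limma, adjusted p = 1). The groups did not overlap, but SCAN1#1 replicate 2 was only 1.27 points above WT of its experiment. With all deposited peaks the same 5 libraries gave 26.8, 24.1, 55.0, 47.0 and 56.2%, and the peaks that SCAN1#1 replicate 2 has deeper in the gene are not among its 63456 strongest.

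The main CDKN1A peak had its summit 454, 457, 448, 362 and 434 bases after the start site, which is the first base after the sequence printed above. That start site, at 36678714, lies inside the annotated gene, which begins at 36676463. The upstream edge of the peak lay after the start site in WT, at 97 and 104 bases. In the SCAN1 libraries that edge lay before the start site but still inside the annotated gene, at -330, -80 and -282, within or beyond the G-rich stretch shown. The authors' fold enrichment of that peak was 12.0, 11.8, 22.1, 34.6 and 57.8. By its deposited -log10 p the peak was in the top 1.37, 2.28, 0.657, 0.399 and 0.165% of its own list. Since these are values within a list, no change is read from them.

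PLK3, a stress-responsive polo-like kinase, was covered over 91.7, 91.8, 97.3, 97.3 and 97.3%. The groups were apart by 5.53 points (SE 2.31) with almost no spread within either (limma, adjusted p = 1). In each SCAN1 library a single peak of 10326 to 12451 bases ran over the whole gene, while WT replicate 1 had 3 peaks, the widest of 6256 bases, and WT replicate 2 had peaks of 1646 and 6245 bases. CCNG1, a cyclin that recruits a phosphatase to MDM2, had 7.52, 9.44, 10.7, 14.0 and 16.2%, again without overlap of the groups. Of its covered bases, 63.6% lie inside another gene, NUDCD2 or LOC105377700, so that coverage cannot be assigned to CCNG1 alone.

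The other 3 cell cycle members overlapped between the groups. GADD45A, a growth arrest protein induced by DNA damage, was covered almost whole, over 91.3, 88.7, 96.2, 95.9 and 88.9%. It carried 1 peak in each library with a deposited fold enrichment of 34.0 to 96.4. By -log10 p that peak was in the top 0.0876 to 0.290% of each list. BTG2, which slows division and promotes mRNA deadenylation, gave 0, 12.7, 11.6, 53.01 and 35.0%. The difference of its means was 26.8 points with a standard error of 13.04, the second largest of the tested members, but SCAN1#1 replicate 1 lay below WT replicate 2. PLK2, a kinase related to PLK3, gave 16.5, 15.8, 11.5, 15.1 and 19.4%, with WT inside the range of SCAN1.

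The regulators that feed back on p53 gave no separation. MDM2, the ubiquitin ligase that marks p53 for degradation, was covered over 8.36, 3.46, 15.2, 7.28 and 10.3%. Each SCAN1 library was above WT of its own experiment, by 6.80, 3.81 and 6.80 points, but SCAN1#1 replicate 2 was below WT replicate 1. The unadjusted limma p was 0.177, and 0.0330 with the experiment as a block. Its strongest peak began 149 bases after the start site in WT replicate 1 and 100 bases after it in SCAN1#2, but 17363, 16772 and 16673 bases after it in WT replicate 2 and SCAN1#1 replicates 1 and 2. PPM1D, a phosphatase that dampens the damage response, had 4.24, 8.91, 5.38, 6.64 and 5.19%, with every SCAN1 library between the WT values.

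Of 7 members that act in mitochondrial apoptosis, BBC3 and TP53INP1 were higher in every SCAN1 library (7.83% of all genes with a peak). BBC3, which encodes the BH3-only protein PUMA (chromosome 19, 47220824 to 47232860, minus strand), was covered over 38.4, 25.0, 56.4, 47.4 and 42.4%. WT averaged 31.7 ± 9.45% (SD, n = 2) and SCAN1 48.8 ± 7.09% (SD, n = 3), a difference of 17.1 points with a standard error of 10.1 (limma, adjusted p = 1). A peak 10489 to 12266 bases after the start appeared among the strongest of all 3 SCAN1 libraries and of neither WT library. In the full deposited list WT replicate 1 had a weaker peak there, from 11980 to 12370, and over all deposited peaks the BBC3 groups overlapped. TP53INP1, which promotes autophagy and cell death, gave 3.09, 3.31, 4.07, 3.60 and 3.63%, and all of its covered bases lie inside NDUFAF6.

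The pore-forming protein BAX was covered over 96.6, 88.7, 97.6, 90.0 and 88.6% of its gene, near the ceiling of the measure in both genotypes. PMAIP1, the BH3-only protein NOXA, gave 42.9, 28.3, 36.5, 40.1 and 40.8%, and AEN, a nuclease of apoptotic cells, 21.8, 32.9, 35.0, 32.1 and 34.2%. In both genes 1 WT library lay within or above the SCAN1 range. TRIAP1, an inhibitor of apoptosis that shares 53.2% of its covered bases with GATC, had 14.0, 0, 11.6, 0 and 9.82%. APAF1, the scaffold of the apoptosome, did not pass the filter.

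Death receptors had low coverage, at most 9.96% in any member and library. Of the 5, 3 were higher in every SCAN1 library, beside 7.83% of all genes with a peak. TNFRSF10B, a receptor for the death ligand TRAIL, was covered over 2.87, 3.26, 9.96, 9.77 and 8.71%. WT averaged 3.07 ± 0.28% (SD, n = 2) and SCAN1 9.48 ± 0.67% (SD, n = 3), a difference of 6.41 points with a standard error of 1.52 and an unadjusted limma p of 0.00716 (adjusted p = 1). It lies on the short arm of chromosome 8, where the 24 tested genes within 2.5 Mb had a median difference of 3.77 points, the largest such value among the 15 separated members. What the neighbourhood contributes to the TNFRSF10B difference was not tested. EDA2R, a receptor for an ectodysplasin isoform, gave 1.68, 1.89, 1.99, 3.37 and 5.86%, and FAS gave 1.44, 1.34, 1.75, 2.69 and 2.33%, with 94.3% of the covered FAS bases inside ACTA2 or FAS-AS1. TNFRSF10A and the decoy receptor TNFRSF10C overlapped between the groups.

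Of 5 DNA repair members, only RRM2B was higher in every SCAN1 library (7.83% of all genes with a peak). RRM2B, a ribonucleotide reductase subunit that supplies nucleotides for repair, had 1.70, 4.07, 5.44, 4.58 and 8.52%. DDB2, which recognises ultraviolet lesions, gave 57.8, 34.6, 65.8, 45.4 and 39.9%, where both libraries of experiment 1 were above the 3 of experiment 2. The translesion polymerase POLH gave 27.2, 6.90, 18.3, 3.03 and 5.12%, again highest in experiment 1, and its difference between genotypes was -8.23 points with a standard error of 7.71. XPC, the damage sensor of nucleotide excision repair, gave 15.0, 4.17, 13.1, 9.29 and 13.01%. ASCC3, a helicase gene with a length of 373 kb and the longest member, stayed under the filter.

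Metabolic, redox and autophagy genes included 4 separated members of 8, beside 7.83% of all genes with a peak. FDXR had the largest difference of all tested members. FDXR, the mitochondrial ferredoxin reductase (chromosome 17, 74862497 to 74872994, minus strand), was covered over 28.4, 25.2, 71.5, 68.9 and 37.1%. WT averaged 26.8 ± 2.27% (SD, n = 2) and SCAN1 59.2 ± 19.1% (SD, n = 3), a difference of 32.4 points with a standard error of 13.8 and an unadjusted limma p of 0.0616 (adjusted p = 1). Both SCAN1#1 libraries were far above WT and SCAN1#2 was 12.0 points above WT of its experiment. A stretch 3162 to 4743 bases after the start (chromosome 17, 74868251 to 74869832) carried peaks in all 3 SCAN1 libraries and none in either WT library, also among all deposited peaks. Near the end of the promoter printed above, the peak nearest the start began at 163 and 140 bases in WT and at 167, 31 and -53 in SCAN1. It ran on to 1143 and 659 bases in WT and to 2800, 926 and 2461 in SCAN1. SCAN1#1 replicate 1 also had a peak before the start, from -1432 to -871.

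TIGAR, a phosphatase that lowers glycolytic flux (chromosome 12, 4321213 to 4360028, plus strand), had 8.06, 3.17, 22.5, 14.0 and 13.5%. The difference was 11.0 points with a standard error of 4.06 and an unadjusted limma p of 0.0390 (adjusted p = 1), and the groups did not overlap. Most of it lay inside the gene and not at the start: in SCAN1#1 replicate 1 a peak ran from 16668 to 23483 bases after the start, where the WT libraries had short, separate peaks. DRAM1, a lysosomal protein of p53-driven autophagy, gave 2.04, 1.56, 3.20, 3.81 and 5.70%. CMBL, a hydrolase gene, gave 1.09, 1.21, 1.53, 2.76 and 2.02%. TP53I3, a quinone oxidoreductase, was covered over 62.9, 56.2, 53.5, 70.6 and 62.5%, with 97.6% of its covered bases inside FAM228B. SESN2, a sestrin that restrains mTOR signalling, gave 5.71, 5.07, 7.73, 4.97 and 8.53% and overlapped between groups, and its relative SESN1 and the mitochondrial quality gene SPATA18 were under the filter.

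**Figure D2:**
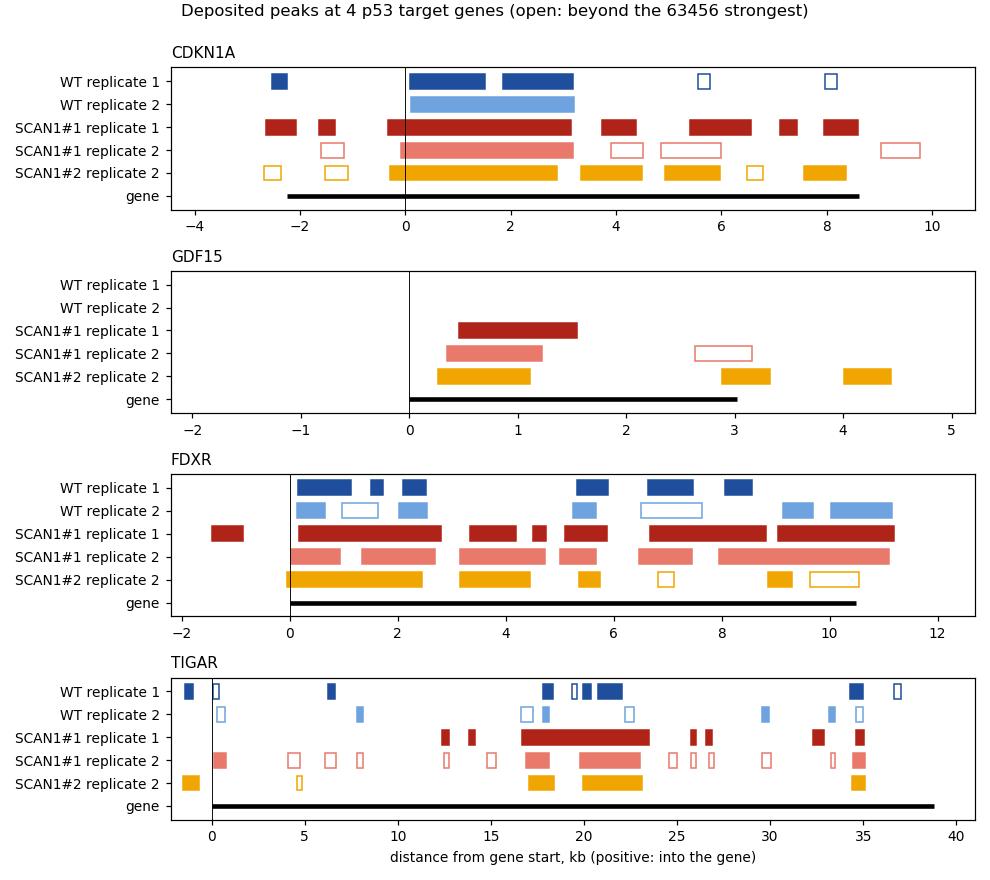
Deposited peaks of the 5 libraries at CDKN1A, GDF15, FDXR and TIGAR, drawn to scale by distance from the gene start in kb, with filled boxes for peaks among the 63456 strongest of a library, open boxes for weaker ones and a black bar for the gene. GDF15 has boxes in the SCAN1 libraries alone, and the CDKN1A box at the start reaches upstream of it in SCAN1 and begins after it in WT.

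Among 8 further members, GDF15 and TRIM22 were higher in every SCAN1 library (7.83% of all genes with a peak). GDF15, a secreted cytokine of the TGF-beta family induced by stress (chromosome 19, 18386158 to 18389176, plus strand), had no deposited peak in either WT library, while SCAN1 coverage was 21.8, 17.4 and 26.1%. WT is listed at 0, so no fold change is given, and the difference was 21.8 points with a standard error of 3.68 and an unadjusted limma p of 0.00153 (adjusted p = 0.966). On a log2(percent + 1) scale it was 4.49 with a standard error of 0.28, and there its limma adjusted p was 0.0349, as 1 of 3 genes called higher on that scale (0.0354% of tested genes, with 0.0118% called lower). GDF15 passed the coverage filter through the SCAN1 libraries alone and so had to differ, which makes this call a description of its values and no support for a difference. With all deposited peaks on that scale it was the only gene called higher (0.0103%). The 3 SCAN1 peaks lay 455 to 1550, 352 to 1224 and 264 to 1117 bases after the start, with deposited fold enrichments of 6.17, 7.83 and 17.7. By -log10 p these peaks ranked in the top 27.1, 20.6 and 2.39% of their lists. Around it, the 67 tested genes within 2.5 Mb had a median difference of -0.34 points.

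TRIM22, a tripartite motif protein of antiviral defence, had no WT peak among the strongest and gave 1.45, 1.73 and 2.10% in SCAN1. With all deposited peaks WT replicate 1 had 1.24%. PHLDA3, an inhibitor of AKT, was covered over 92.5, 94.5, 92.5, 91.7 and 93.3%, under 1 peak of 8093 to 8718 bases in each library. NINJ1, which acts in plasma membrane rupture, gave 9.96, 6.40, 23.3, 22.2 and 7.23%, high in both SCAN1#1 libraries but not in SCAN1#2. With all deposited peaks it gave 19.4, 23.4, 23.3, 62.7 and 28.5%, where that pattern did not hold. ABHD4, a lysophospholipase, gave 4.95, 1.91, 0, 4.25 and 0%. The RNA-binding protein ZMAT3, CYFIP2 and SUSD6 did not pass the filter.

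The 15 separated members were not all short or all heavily covered, and their differences ran from 0.564 to 32.4 points. In 14 of the 15 the difference was larger than the median of the tested genes within 2.5 Mb, and those medians ran from -4.41 to 3.77 points. The 15 were picked for being higher in SCAN1 and their neighbours were not. That count was therefore largely set by the choice, and what the neighbourhoods contribute was not tested. In 3 of the 15 (CCNG1, TP53INP1 and FAS) most covered bases lie inside another gene. Member genes were 2.42 to 373 kb long with a median of 24.8 kb, and among all genes of up to 100 kb the same separation was found in 8.22% above and 6.36% below. With all deposited peaks, 14 members were above and 0 below, beside 6.64% and 4.71% of all genes, and 12 members were above in both settings. BBC3, CCNG1 and CMBL were above only with equal lists, AEN and MDM2 only with the deposited ones.

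Taken within experiments, each SCAN1 library was set against WT of its own experiment, which is 1 library against 1 with no test. For SCAN1#1 in experiment 1, 27 members were higher (42.4% of all genes with a peak) and 12 lower (46.1%), with a median of 0.976 points. For SCAN1#1 in experiment 2, 28 were higher (52.8%) and 10 lower (38.6%), with a median of 1.35 points. For SCAN1#2 in experiment 2, 32 were higher (44.8%) and 9 lower (46.9%), with a median of 2.14 points. These last comparisons share the WT library of experiment 2. In all 3 comparisons, 21 members were higher and 3 lower, beside 15.2% and 15.2% of all genes. FDXR gained 43.1, 43.8 and 12.0 points, BBC3 18.1, 22.4 and 17.4, TIGAR 14.4, 10.8 and 10.3, and GDF15 21.8, 17.4 and 26.1.

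Near gene starts the p53 target genes were covered more than the average gene in both genotypes, and the SCAN1 libraries were highest over the bases just after the start. Over the 31 members with an entry in the promoter table, the first 2 kb after the start were covered over 25.1, 24.7, 35.2, 39.6 and 43.7% on average, and those of 15811 protein-coding genes over 14.0, 12.7, 14.7, 14.8 and 14.9%. The 2 kb before the start gave 18.0, 12.9, 17.8, 14.0 and 17.6% in the members, where SCAN1 did not lie above WT, and the stretch from 2 to 5 kb after it gave 16.6, 16.95, 22.6, 23.0 and 22.9%. In 100-base bins the member profile was highest 350 to 550 bases after the start, at 45.2, 42.4, 54.2, 58.1 and 63.3%. The profile of all genes was highest in the same stretch, at 20.6, 18.7, 21.5, 21.8 and 23.2%.

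**Figure D3:**
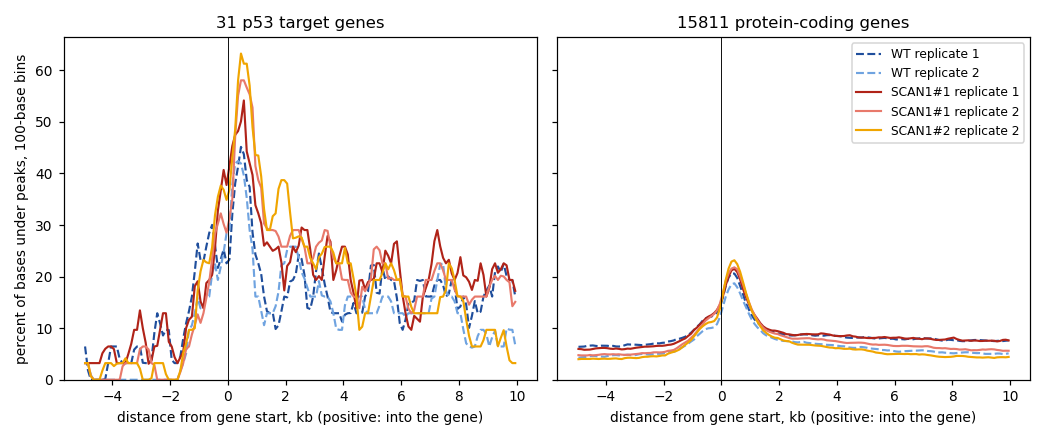
Percent of bases under the 63456 strongest peaks of each library in 100-base bins from 5 kb before to 10 kb after the gene start, averaged over 31 p53 target genes (left) and 15811 protein-coding genes (right), with WT dashed and SCAN1 solid on 1 shared vertical axis. In the first 2 kb after the start the solid lines of the p53 target genes lie above the dashed ones, while the lines of all genes lie close together.

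In that first 2 kb window, 10 of the 23 members with a peak there had every SCAN1 library above both WT libraries, and 0 had every one below, beside 11.0% and 4.12% of 7114 genes with a peak there. This window was chosen after the profile was seen. CDKN1A was covered over 77.7, 94.8, 100, 100 and 100% of it, FDXR over 60.5, 26.0, 91.7, 77.9 and 100%, and EDA2R over 38.3, 43.1, 45.3, 77.0 and 87.7%. GDF15 and DRAM1 were at 0 in both WT libraries, and gave 54.8, 43.7 and 42.7% and 28.0, 18.3 and 20.95% in the SCAN1 libraries. They entered the 23 through the SCAN1 libraries alone and could not count as below, so the 10 of 23 is a description. The other 5 were PLK3, XPC, CYFIP2, CCNG1 and BBC3. TIGAR, separated over the whole gene, was covered in this window by the strongest peaks of 1 library alone, SCAN1#1 replicate 2. Among all deposited peaks both WT libraries also had a peak there, from 83 to 381 and from 265 to 708 bases. The limma test of this window called 0.0% of 6883 genes in either direction, while an unadjusted p under 0.05 was reached by 3.76% of them as higher and 1.53% as lower. At that level 6 of the 23 tested members were higher (CCNG1, CYFIP2, DRAM1, FDXR, GDF15 and PLK3) and 0 lower. DRAM1 and GDF15, at 0 in both WT libraries here, were tested only because of their SCAN1 coverage and had to be higher. The smallest adjusted p of a member was 0.424.

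Where peaks of the 5 libraries were merged into regions, the windows of the 41 members held 193 regions. Peaks of all 5 libraries were present in 40 of them (20.7%, against 14.1% of 79736 regions at protein-coding genes). Regions with a peak in all 3 SCAN1 libraries and no WT library numbered 9 (4.66%, against 1.01%), and those with both WT libraries and no SCAN1 library numbered 0 (against 1.60%). The 9 lay at GDF15, FDXR, BBC3, XPC, SUSD6, TRIM22, TNFRSF10B and, with 2 regions, DRAM1. The DRAM1 regions lay 25 to 702 and 29303 to 29945 bases after its start.

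The spread between lines of the genotype could be seen in experiment 2, with 1 library each and no test. SCAN1#2 minus SCAN1#1 was -31.8 points at FDXR, -18.0 at BTG2 and -15.0 at NINJ1. The same difference was 22.6 points at CDKN1A, 9.82 at TRIAP1 and 8.71 at GDF15. With all deposited peaks, SCAN1#1 replicate 2 and SCAN1#2 had 47.0 and 56.2% at CDKN1A. They had 11.2 and 9.82% at TRIAP1, and 28.0 and 26.1% at GDF15, so the sign turned at these genes. FDXR, BTG2 and NINJ1 stayed lower in SCAN1#2 with those peaks. The gaps with equal lists are as large as many of the differences between genotypes, and SCAN1#1 supplied 2 of the 3 SCAN1 libraries.

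The experiments were compared in the same way. Over WT and SCAN1#1 in both experiments, limma called 0.0% of 8471 genes higher or lower in experiment 2 (smallest adjusted p 0.218), while an unadjusted p under 0.05 was reached by 3.51% as higher and 13.7% as lower. The median difference of the 29 tested members, experiment 2 minus experiment 1, was -1.50 points, against -0.929 over all tested genes. At an unadjusted p under 0.05, 1 of the 29 was higher, BTG2 (27.0 points), and 5 were lower, BAX, DDB2, MDM2, POLH and TRIAP1, with -21.8 points at DDB2 and -17.8 at POLH. These shares are near those of all tested genes and are no result about the members. The antibody lots differed in the same way, and their part in these values was not tested.

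Other lists of the p53 pathway gave smaller shares of genes above in every SCAN1 library, near those of all genes. Of all genes with a peak, 7.83% were above and 6.21% below, and 51.6% and 48.4% of tested genes had positive and negative differences. Of 31 other p53 targets, 3 (9.68%) were above in every SCAN1 library and 2 (6.45%) below, and the 20 tested had 13 positive and 7 negative differences with a median of 1.08 points. BCL2L1, an inhibitor of apoptosis, gave 12.2, 8.81, 35.5, 24.8 and 16.9%, and IER5 gave 46.9, 41.6, 24.9, 34.3 and 33.0%. Of 23 regulators of p53, 2 were above and 2 below (8.70% each), with 7 positive and 6 negative differences among 13 tested and a median of 0.821 points. The p53 inhibitor MDM4 was covered over 11.9, 10.2, 12.0, 6.87 and 3.69%, with the groups overlapping. None of these genes was called by limma.

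Genes of the cell cycle that p53 lowers through p21 and the DREAM complex had mostly negative differences. Of 28 tested, 6 were positive and 22 negative with a median of -1.87 points, beside 51.6% and 48.4% of all tested genes. Of all 30, 2 (6.67%) were above and 3 (10%) below in every SCAN1 library, beside 7.83% and 6.21% of all genes with a peak. None was called by limma. Within experiment 2, SCAN1#1 minus WT was positive at 14 of all 30 and negative at 15, with a median of -0.06 points. The 2 above were the cyclin CCNA2, with 12.9, 8.19, 24.7, 14.8 and 13.9%, and the spindle checkpoint gene MAD2L1, with 4.07, 3.95, 4.95, 7.68 and 7.70%. The mitotic regulator BIRC5 gave 43.4, 34.7, 27.7, 2.73 and 12.2%, and the transcription factor FOXM1 gave 92.3, 60.7, 71.4, 34.9 and 33.8%, where the groups overlapped. Immediate early genes, another stress-responsive list, had 7 of 29 above (24.1%) and 2 below (6.90%), beside the same 7.83% and 6.21%. Their median was 2.78 points over 23 tested. Among them IER2 gave 54.7, 25.6, 59.6, 77.1 and 64.6%. The differences between these lists and the 41 members were not tested.

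**Figure D4:**
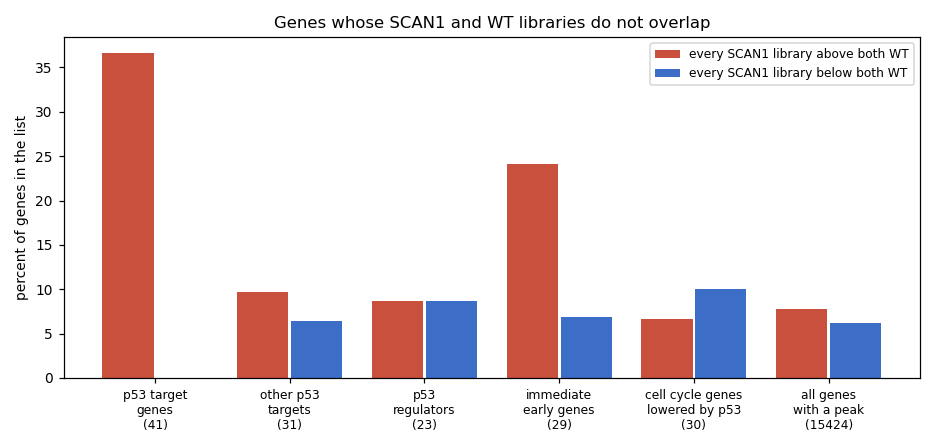
Percent of the genes of each list (number in brackets) in which every SCAN1 library lay above (red) or below (blue) both WT libraries in percent covered. The bar above is 36.6% for the 41 p53 target genes, which have none below, and 7.83% for all 15424 protein-coding genes with a peak. The members and lists were chosen with earlier results of these data known.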

How the data were processed

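DRIP-seq peak lists of 5 libraries of U2OS cells were used. Input samples (5) were not analysed here. MACS3 3.0.0a6, BWA 0.7.17-r1188 and SAMtools 1.9 are among the tools, and hg38 is the build, per the submitters' processing notes. The control and options of peak calling are unknown here. Each deposited list holds 1 library's peaks in the narrowPeak layout. The values used are the authors' fold enrichment of a peak (a ratio), its deposited -log10 p and its deposited -log10 q. The lowest -log10 q was 2.00 to 2.01 in every list.

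Genes were taken from RefSeq on GRCh38.p14, with gene starts and strands from its promoter table, and coordinates are 1-based. For each library the 63456 peaks of highest -log10 p were kept, and the percent of each protein-coding gene (1 kb added at both ends) under them was computed with Python 3.11.15, numpy 2.4.6 and pandas 2.3.3. Genes with a mean of at least 2% entered a linear model in limma 3.58.1 under R 4.3.3 (lmFit and a trended eBayes), 3 SCAN1 against 2 WT libraries without covariates, with Benjamini-Hochberg adjustment over all tested genes and a threshold of 0.05. The fit was tested on simulated data. Merged regions join peaks that overlap by at least 1 base.

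The replicate number is the number of the experiment, per the labels, so it pairs the libraries. Across genes, the deviations of same-numbered libraries from their group means had a correlation of 0.612 for SCAN1#1 and WT of experiment 1, and of 0.325 and 0.470 for SCAN1#1 and SCAN1#2 with WT of experiment 2. The deviations of the WT libraries mirror each other and those of the SCAN1 libraries cancel out, so these correlations are not independent. The members and lists were chosen with earlier results of these data known. Values in every library are given for 7 members fixed by name (CDKN1A, MDM2, BBC3, BAX, FDXR, TIGAR and GDF15), for tested members whose groups do not overlap and for the members of highest coverage, up to 20 in all, and the remaining members named with their values were chosen after these were seen. Not every gene the rule names is reported here.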

Additional observations from a re-analysis of the deposited data

Results flagged for a closer look

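In 2 members the SCAN1 lines differed from WT with opposite signs. At BAX, SCAN1#2 was -0.0784 percentage points from WT of experiment 2, while SCAN1#1 was 0.997 and 1.28 points above WT of experiments 1 and 2. At PLK2, SCAN1#2 was 3.63 points above WT and SCAN1#1 was at -5.05 and -0.740 points. The difference between the lines was not tested in either gene.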

How the results depend on the processing

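No count of calls, all genes or members, left 0 except on the log2(percent + 1) scale. There limma called 3 genes higher and 1 lower, among them GDF15 as the 1 member (4.49, adjusted p 0.0349), which entered through the SCAN1 libraries alone and had to differ, and with all deposited peaks, a setting chosen after seeing the data, 1 gene higher, again GDF15 (4.71, adjusted p 0.0441). With the replicate block the median difference of the tested members was 4.19 points in place of 3.53, and the pairing changed no call. The median was 1.76 without the coverage filter, 5.18 over gene ends alone, 16.0 over the 2 kb after the start (chosen after seeing the data) and 2.19 to 5.50 with each library left out in turn. Negative differences numbered 6 of 29, beside 48.4% of all tested genes. They numbered 4 to 10 with a library left out (10 without WT replicate 2), and 2 of 23 over the 2 kb after the start. The shares of all genes in those other settings are not given here. With 1 library left out, the count of members below in every SCAN1 library went from 0 to between 1 and 5. It was 2 with SCAN1#1 alone, that is without SCAN1#2, where 17 were above. The shares of all genes were larger in these settings too, in the ranges given above. The above count of 15 (7.83% of all genes) was 14 with all deposited peaks (6.64%), 12 with a -log10 q of at least 5 (6.24%), 14 without the added 1 kb (7.61%) and 11 of 35 over gene ends (9.32%). With all deposited peaks, regions of all SCAN1 and no WT libraries numbered 14 in place of 9 (5.83%, against 1.005% of regions at protein-coding genes). The reverse numbered 2 in place of 0 (0.833%, against 1.39%). Regions with all 5 libraries numbered 20 in place of 40 when each had to cover 50% of the region (10.4%, against 6.08%).

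Of 20 members followed through these settings, 4 turned sign in some setting, and GADD45A and PHLDA3 were at 0.0 without the added 1 kb. A member under a setting's filter has no value there. BAX, at -0.583 points, was 0.77 with the replicate block, 0.763 without the added 1 kb and 1.14 with SCAN1#1 alone, and -4.53 to 3.36 with a library left out. TP53I3, at 2.64, was -0.0106 with all deposited peaks (-0.0024 on the log2 scale), -0.971 over gene ends and -1.55 to 6.98 with a library left out. PMAIP1, at 3.53, was -0.356 without the added 1 kb, -0.767 over the 2 kb after the start and -3.79 to 10.9 with a library left out. DDB2, at 4.15, ran from -7.48 to 15.8 with a library left out. The cause was not tested. Without read counts, a gene with no peak may still hold hybrids under the caller's threshold, and 3 against 2 libraries limit the precision.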
